A study of Homo sapiens with 4 samples.

Results

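The WAVE complex is a protein assembly that tells cells where to build branched actin, and its mRNAs were examined in MDA-MB-231 cells, an established human breast carcinoma line with mesenchymal features. The list of its subunits holds 10 genes (CYFIP1, CYFIP2, NCKAP1, NCKAP1L, ABI1, ABI2, WASF1, WASF2, WASF3 and BRK1), chosen by name and each read from the brightest probe set that carries its symbol. Of these, 8 had a probe set, 1 each, among 15870 genes with a symbol on the array. ABI2 and WASF1 had no probe set with their symbol and were not analysed here. The complex came to attention because CYFIP2 was already known to differ between the groups, so the values of CYFIP2 are given as a description with no test.

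Total RNA was measured on 4 arrays. The 2 shDROSHA arrays hold RNA of cells with a short hairpin RNA against DROSHA, the nuclear enzyme that cuts primary microRNA transcripts. The 2 shNC arrays hold RNA of the control cells, which the design text calls mock-transfected, and whether shNC or mock-transfected describes them was not settled here. All cells are of the same line and were grown in the same medium, and the titles call the replicates biological. The labels do not say how many hairpins or clones stand behind each group. The values are log2 RMA signals, that is, background-corrected and normalized brightness per probe set, and the levels of different probe sets are not comparable with each other.

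In the cell, the complex is built from 5 kinds of subunit. CYFIP binds the active form of the small GTPase Rac and, together with NCKAP1, holds the WASF subunit, also called WAVE, in an inactive state. When Rac binds, the tail of WASF is released and switches on the Arp2/3 complex, which starts new actin branches at the leading edge of a migrating cell. An Abl interactor (ABI) and BRK1 complete the assembly, and several subunits exist as paralogs that can take each other's place.

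DROSHA mRNA, the target of the hairpin, was lower in the cells labelled shDROSHA, at 8.71 and 8.74 in the shDROSHA arrays, against 9.66 and 9.76 in the shNC arrays (log2 signals). The 6 genes fixed as markers of the line, among them VIM, CD44 and CAV1, were all above the median signal of the array. Of these 6, AXL rose by 0.33 (limma adjusted p = 0.00442 in the trended fit described next), CAV1 fell by 0.23 (0.0031) and MSN fell by 0.22 (0.0133), and the other 3 did not pass. With a constant prior 0 of the 6 passed in limma (3 at an unadjusted p under 0.05). Of 19 measured markers of luminal breast cells, blood cells and neurons, 3 were above the median signal (KRT8, HBA1 and GAD1, named after their values were seen). KRT8 lay at the 97.9, GAD1 at the 80.0 and HBA1 at the 55.3 percentile of all probe sets. PTPRC, the pan-leukocyte antigen, was the lowest of the 19, at the 3.42 percentile. In the trended fit of limma, 0 of these 19 passed, 1 had an unadjusted p under 0.05 (KRT8), and 0 passed with a constant prior.

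All 7 measured subunits other than CYFIP2 had a lower mean in the shDROSHA arrays as deposited, as had 49.8% of all probe sets. Of the 7, NCKAP1 was higher by 0.02 once arrays were centred on their medians. CYFIP1, NCKAP1 and WASF2 took either sign when 1 array was left out. The sizes of the differences were unequal. CYFIP2, a Rac-binding subunit, was 1.99-fold lower, and WASF3, an Arp2/3-activating subunit, fell 1.61-fold, whereas their measured paralogs CYFIP1 and WASF2 differed by 1.04-fold and 1.03-fold. The test was limma's moderated test over all 18603 probe sets whose prior variance was let to vary with signal (the trended fit), at an adjusted p of 0.05. It called 6.41% of all probe sets, 3.12% higher and 3.28% lower. Centring the arrays on their medians put 62.5% of the calls on the higher side, against 48.7% as deposited. Of the 7 members other than CYFIP2, 1 fell, WASF3, 0 rose and 6 did not pass. With a constant prior variance limma called 0 of the 7 (1 at an unadjusted p under 0.05) and 1 probe set of the whole array (0.00538%). With so few arrays the calls rest on the spread pooled across probe sets, since an exact permutation test of 2 arrays against 2 cannot give a two-sided p below 0.333. In RNA of whole cultures, fewer cells that carry a transcript and less of it per cell cannot be told apart.

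**Figure D1:**
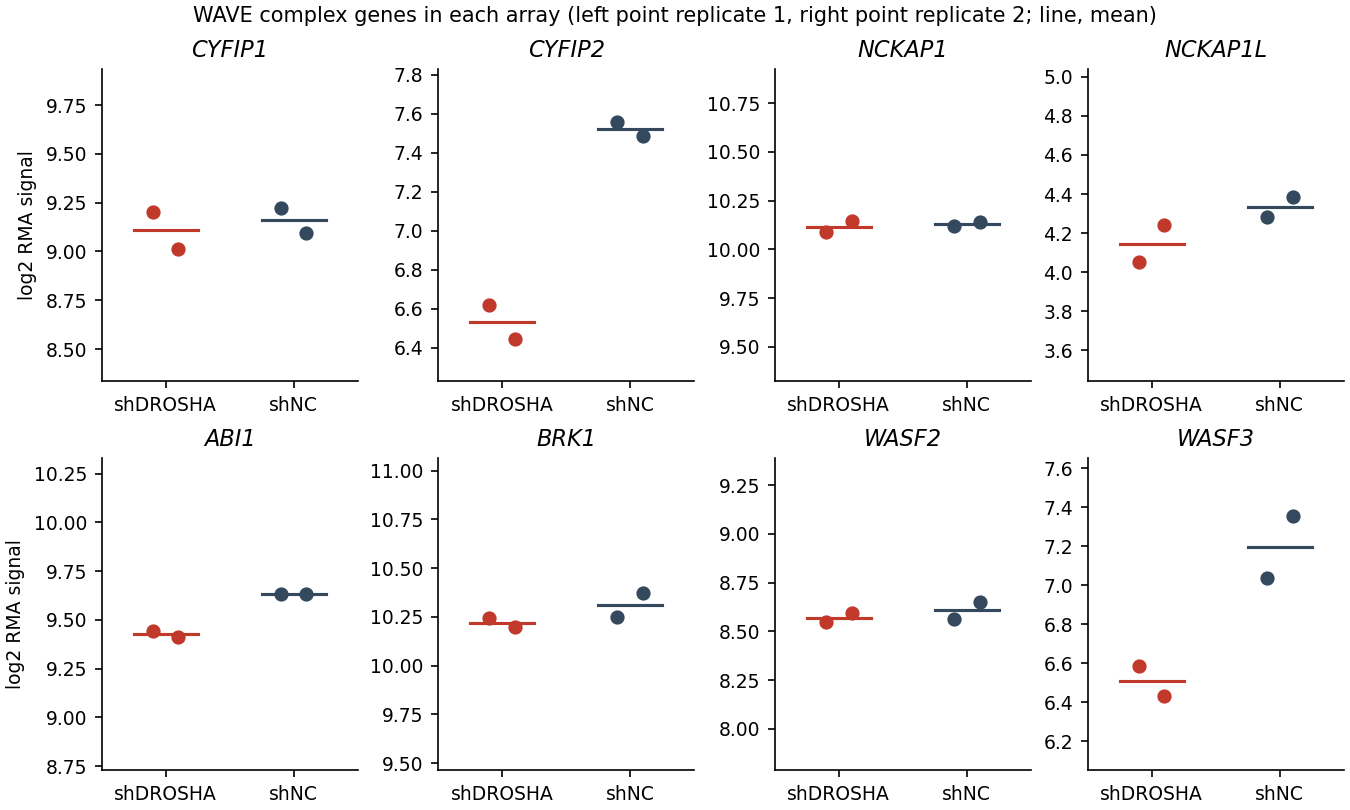
Log2 RMA signal (vertical axis) of the 8 measured WAVE complex genes in the shDROSHA arrays (red) and the shNC arrays (dark blue); each point is 1 array, the line is the mean of 2 arrays, and every panel spans the same range of log2 units. CYFIP2 and WASF3 show the widest gaps between the groups, CYFIP1, NCKAP1 and WASF2 overlap, and ABI1, BRK1 and NCKAP1L are separated by smaller gaps.

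The CYFIP subunits make the contact with Rac. CYFIP2 had signals of 6.62 and 6.45 in the shDROSHA arrays, against 7.56 and 7.49 in the shNC arrays. Both shDROSHA arrays lay below both shNC arrays, by a gap wider than the spread within either group, and the difference of the means was -0.99 on the log2 scale. Of all 18603 probe sets, 26 had a difference as low as that of CYFIP2 or lower. CYFIP2 was first described as a p53-inducible gene and is abundant in brain and in lymphocytes. Its signal lay near the middle of the array, at the 46.4 percentile. Without detection calls, its distance from background is not known. Of the measured luminal markers, GATA3 (47.3) and EPCAM (42.2) lay at similar percentiles, KRT8 (97.9) higher, and ESR1 (29.9) and ERBB3 (13.6) lower. CYFIP1, the paralog used in most tissues, had 9.20 and 9.01 in the shDROSHA arrays, against 9.22 and 9.10 in the shNC arrays. These groups overlapped, and the difference was -0.05 with a 95% interval of -0.23 to 0.13 (limma adjusted p = 0.821). The interval takes in no change as well as a small change in either direction, and the sign of the CYFIP1 difference turned without shDROSHA replicate 2 (0.04) and without shNC replicate 1 (0.01). Taken within each array, the signal of CYFIP2 minus that of CYFIP1 was -2.59 and -2.57 in the shDROSHA arrays, against -1.66 and -1.61 in the shNC arrays. The groups' means of this difference were -0.94 apart, which is a description with no test, as the known difference of CYFIP2 led to the choice of the complex.

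The WASF subunits carry the tail that activates Arp2/3. WASF3, which has been linked to invasion of breast carcinoma cells, had signals of 6.59 and 6.43 in the shDROSHA arrays, against 7.04 and 7.35 in the shNC arrays. The groups did not overlap, and the shNC arrays stood farther apart from each other than the shDROSHA arrays did. WASF3 fell by 0.69 on the log2 scale (SE 0.146, limma adjusted p = 0.0119). Its signal lay at the 43.2 percentile, and without detection calls its distance from background is not known. In the bin of 5 equal bins of signal that holds WASF3, the third from the dimmest, the trended fit called 4.70% of probe sets. Of all probe sets, 104 had a difference as low as that of WASF3 or lower. The call was lost with the constant prior (adjusted p = 0.183). It was also lost without shNC replicate 2, the highest array for this gene, where the difference was -0.53 (adjusted p = 0.142). WASF2, the WASF paralog found in most cell types, had 8.55 and 8.59 in the shDROSHA arrays, against 8.56 and 8.65 in the shNC arrays. These overlapped, with a difference of -0.04 and a 95% interval of -0.22 to 0.14 (limma adjusted p = 0.872). Within each array, the signal of WASF3 minus that of WASF2 was -1.96 and -2.16 in the shDROSHA arrays, against -1.53 and -1.30 in the shNC arrays, so this difference shifted by -0.65 without a test of its own.

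**Figure D2:**
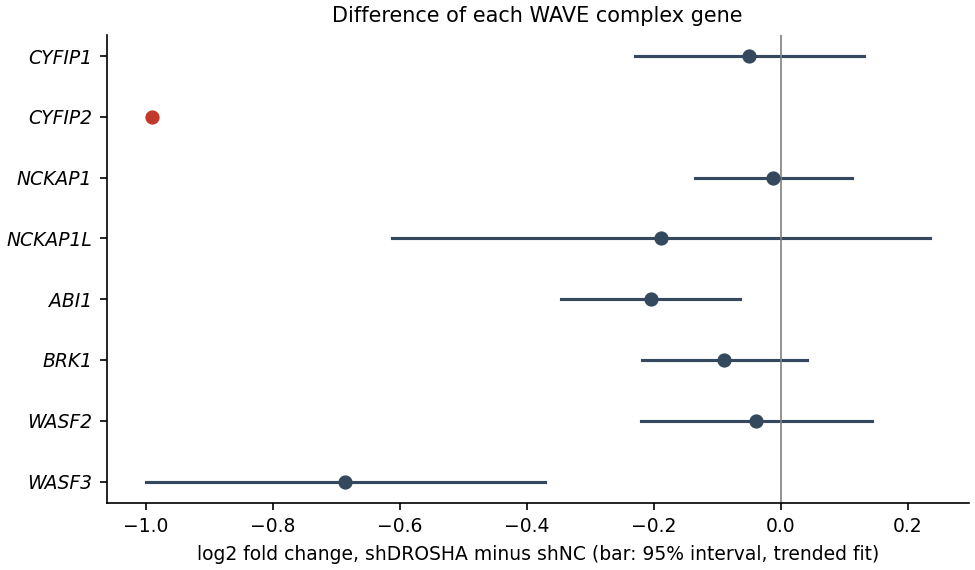
Log2 fold change of each measured WAVE complex gene, shDROSHA minus shNC (horizontal axis), with its 95% interval from the trended fit; CYFIP2 (red) is drawn without an interval because it led to the choice of the complex. WASF3 and ABI1 have intervals wholly below 0, and the intervals of CYFIP1, NCKAP1, NCKAP1L, BRK1 and WASF2 include 0.

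The remaining subunits form the rest of the scaffold. ABI1, the Abl interactor that links WASF to the other subunits and is a substrate of Abl kinases, had 9.44 and 9.41 in the shDROSHA arrays, against 9.63 and 9.63 in the shNC arrays. The arrays of each group lay close together and the groups did not overlap, at a difference of -0.20 (95% interval -0.35 to -0.06). That difference did not pass over all probe sets (limma adjusted p = 0.084) and passed at the looser adjusted p of 0.1. Among the fits that kept all arrays, the adjusted p was above 0.1 with the constant prior (limma adjusted p = 0.335). It was also above 0.1 with arrays centred on their medians (0.162). With robust priors, filters on dim probe sets, repeated quantile normalization and the replicate block it lay between 0.05 and 0.1. ABI1 lies in the brightest of the 5 bins, where the trended fit called 15.6% of probe sets. BRK1, the smallest subunit, had 10.24 and 10.20 in the shDROSHA arrays, against 10.25 and 10.37 in the shNC arrays, with shDROSHA replicate 1 and shNC replicate 1 nearly equal. Its difference was -0.09 (95% interval -0.22 to 0.04, limma adjusted p = 0.478).

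NCKAP1, the large scaffold that pairs with CYFIP, had 10.09 and 10.14 in the shDROSHA arrays, against 10.12 and 10.14 in the shNC arrays. It had the smallest difference of the members, -0.01, and a 95% interval of -0.14 to 0.11 (limma adjusted p = 0.948), and its sign turned without shDROSHA replicate 1 (0.02) and with centred arrays (0.02). NCKAP1L, its paralog of blood cells, had 4.05 and 4.24 in the shDROSHA arrays, against 4.28 and 4.39 in the shNC arrays. At the 1.16 percentile of signal its values cannot be told from background without detection calls. Its difference of -0.19 had a 95% interval of -0.61 to 0.23 (limma adjusted p = 0.685), the widest interval among the members other than CYFIP2.

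Set side by side, the arrays of the groups did not overlap in 4 of the 7 members other than CYFIP2, and all 4 (WASF3, ABI1, BRK1 and NCKAP1L) were lower in shDROSHA. Over all probe sets, the groups did not overlap at 47.8%, with shDROSHA lower at 24.4% and higher at 23.4%. The count of 4 depends on how the arrays are scaled. BRK1 was apart only by 10.243 in shDROSHA replicate 1 against 10.247 in shNC replicate 1, and the medians of these arrays were 7.209 and 7.249. With arrays centred on their medians, the BRK1 groups thus overlap. NCKAP1L was apart by 4.240 in shDROSHA replicate 2 against 4.282 in shNC replicate 1. The medians of those arrays were also 7.209 and 7.249, so centring leaves these NCKAP1L values nearly equal. The median log2 fold change of the 7 was -0.09, and that of all probe sets was 0.001, with quartiles of -0.12 and 0.12. The middle of the members thus lay inside the range that holds the central part of all probe sets, and CYFIP2 and WASF3 lay far below it.

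**Figure D3:**
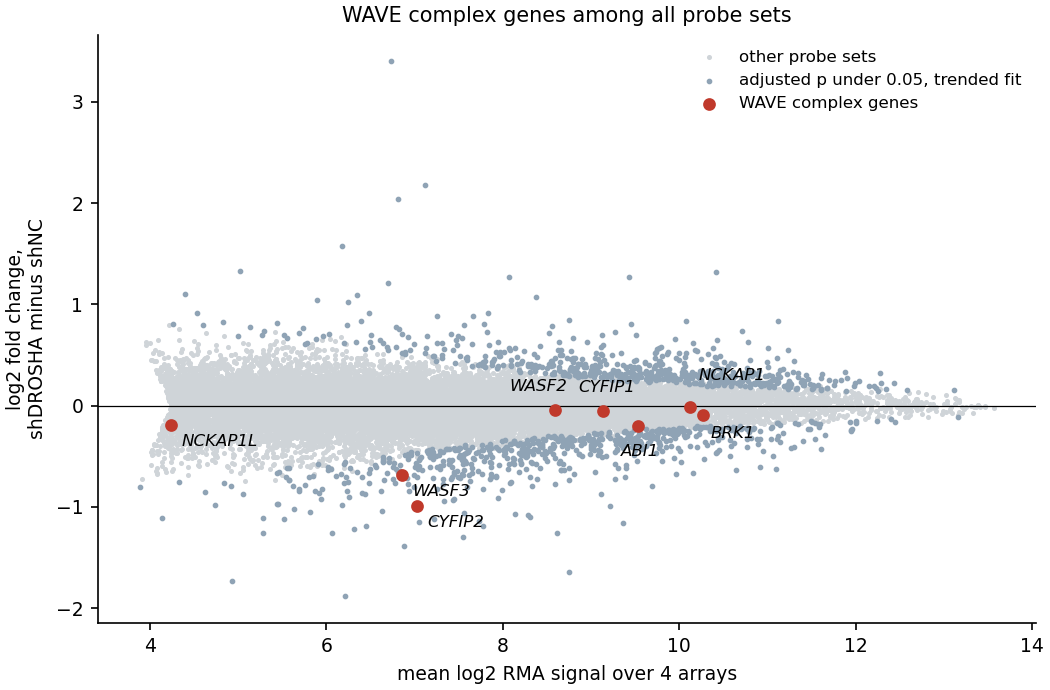
Log2 fold change, shDROSHA minus shNC (vertical axis), against mean log2 signal over 4 arrays (horizontal axis) for all 18603 probe sets; probe sets past the trended fit are blue-grey and the WAVE complex genes are red. CYFIP2 and WASF3 stand below the grey cloud near the middle of the signal range, and the other 6 genes lie near 0.

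Leaving out 1 array at a time showed how far each difference rests on a single array. The CYFIP2 difference ranged from -1.08 to -0.90 and that of WASF3 from -0.84 to -0.53. ABI1, whose arrays lay close together, ranged from -0.22 to -0.19. That narrow range describes the size of the ABI1 difference and not its adjusted p. BRK1 ranged from -0.15 to -0.03 and NCKAP1L from -0.28 to -0.09, so their differences were negative in every such fit but varied widely in size. CYFIP1 (-0.14 to 0.04), NCKAP1 (-0.04 to 0.02) and WASF2 (-0.08 to 0.01) took either sign. The highest WASF2 value came without shNC replicate 2.

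**Figure D4:**
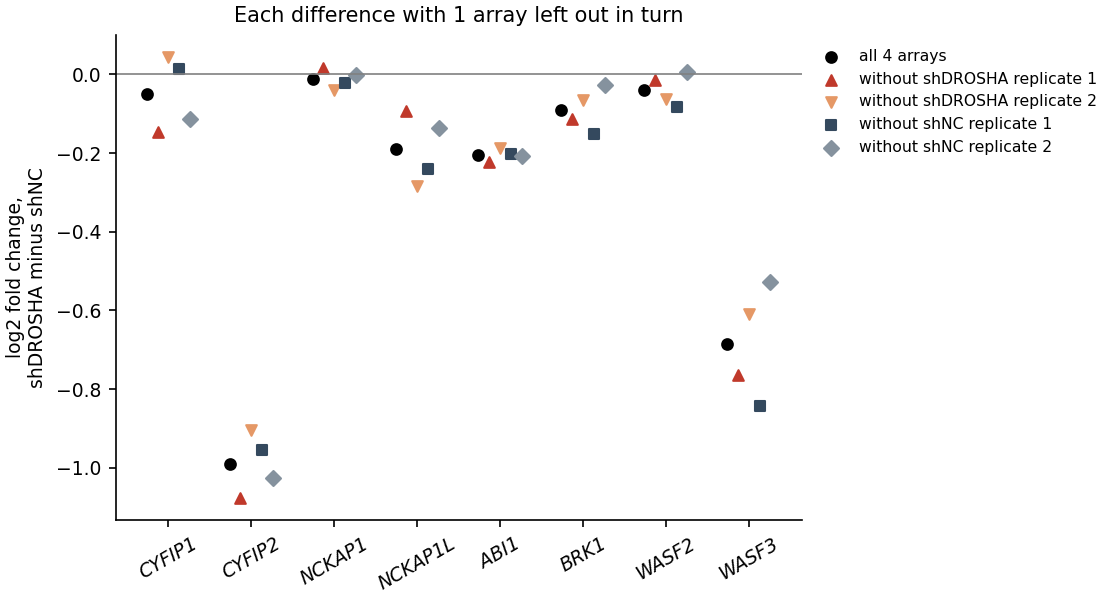
Log2 fold change, shDROSHA minus shNC (vertical axis), of each WAVE complex gene with all 4 arrays (black) and with 1 array left out (coloured markers). CYFIP2 stays between -1.08 and -0.90 and WASF3 between -0.84 and -0.53, while CYFIP1, NCKAP1 and WASF2 fall on either side of 0.

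The upstream sequences of CYFIP2 and WASF3 are shown because these members differed most. They are the 250 bases before annotated starts, from RefSeq on GRCh38.p14, where 8 of the 10 listed genes matched and CYFIP2 and WASF3 have 2 starts each. The starts of WASF3 nearly coincide, so its upstream one is shown. Capitals mark GC boxes (GGGCGG or, on the other strand, CCGCCC) and CCAAT boxes (CCAAT or ATTGG), which do not share letters with each other.
CYFIP2, chr5:157265873-157266122, plus strand: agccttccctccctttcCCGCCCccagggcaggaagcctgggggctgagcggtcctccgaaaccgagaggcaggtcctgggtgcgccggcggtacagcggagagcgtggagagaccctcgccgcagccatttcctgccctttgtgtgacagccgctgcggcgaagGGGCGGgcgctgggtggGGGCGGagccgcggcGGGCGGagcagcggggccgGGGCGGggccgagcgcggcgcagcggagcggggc
CYFIP2, chr5:157269074-157269323, plus strand: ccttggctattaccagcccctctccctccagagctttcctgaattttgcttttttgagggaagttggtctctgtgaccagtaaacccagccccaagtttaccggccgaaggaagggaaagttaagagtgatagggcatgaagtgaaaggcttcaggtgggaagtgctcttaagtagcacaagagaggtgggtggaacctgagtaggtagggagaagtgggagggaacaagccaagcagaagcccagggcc
WASF3, chr13:26557433-26557682, plus strand: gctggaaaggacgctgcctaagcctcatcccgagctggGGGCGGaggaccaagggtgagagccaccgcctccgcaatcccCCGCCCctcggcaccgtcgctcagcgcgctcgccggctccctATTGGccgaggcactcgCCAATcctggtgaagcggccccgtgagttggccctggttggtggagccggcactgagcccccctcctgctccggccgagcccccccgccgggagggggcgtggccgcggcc
The first CYFIP2 sequence holds 5 GC boxes and 30 CpG dinucleotides at 76.4% G and C, and the second holds 0 GC boxes and 2 CpG at 52.4%. The array signal does not tell which start was used. The WASF3 sequence holds 2 GC boxes and 2 CCAAT boxes at 74.0% G and C. Among 35116 such sequences, 42.6% hold a GC box and 32.0% a CCAAT box, and the median G and C content is 58.0%. A TATA box (TATAAA or TTTATA) was found in none of the 3 sequences and in 10.7% of all. GC boxes also occur in members that did not pass. NCKAP1 holds 1 at 74.0% G and C, ABI1 1 at 61.2% and BRK1 0 at 63.6%. Of the 4 CYFIP1 starts, 1 holds 2 GC boxes at 78.4%, and the others hold 0. These matches describe letters, and no factor binding was measured.

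The genes around the complex were read from 7 lists of its activators, partners, opponents and targets. Of 103 listed genes, 96 had a probe set, of which 6 rose, 1 fell and the rest did not pass. Thus 7.29% were called, beside 6.41% of all probe sets, which is not a share at like signal. In each of the 7 lists most measured genes lay above the median signal. The called share rose with signal, from 0.833% of probe sets in the dimmest to 15.6% in the brightest of the 5 bins. The median log2 fold change of the 96 was -0.01, and 49 of them were lower in shDROSHA. The split by direction varied: 5 were higher and 4 lower with quantile normalization again, and 7 and 3 without probe sets below the median. It was 7 and 1 with centred arrays and with the replicate block. With robust priors and without probe sets below the lower quartile it was 6 and 1. The split also shifted when 1 array was left out. With the constant prior 0 of the 96 passed in limma (8 at an unadjusted p under 0.05).

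Upstream of the complex, Rac GTPases and their exchange factors had 0 of 19 members past limma's trended fit (1 at an unadjusted p under 0.05, and 0 past the constant prior). Their differences ranged from -0.29 (DOCK3) to 0.36 (PREX1), neither of which passed, with a median of -0.03. Among 19 partners and recruiters, 1 rose, ABL2, an Abl-family tyrosine kinase that phosphorylates cytoskeletal proteins, and 0 fell, with a median of 0.03. ABL2 had 9.42 and 9.24 in the shDROSHA arrays, against 9.05 and 9.01 in the shNC arrays, and was 1.23-fold higher (limma adjusted p = 0.039). Its call was lost without shDROSHA replicate 1 (adjusted p = 0.16), without shNC replicate 1 (0.112) and without shNC replicate 2 (0.153).

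Downstream, the Arp2/3 complex, which the WASF tail activates, had 0 of 8 measured subunits past the trended fit of limma (2 at an unadjusted p under 0.05, and 0 past the constant prior). Their differences lay between -0.18 (ARPC1A) and 0.18 (ACTR3B), with a median of 0.05, and 6 of the 8 were higher in shDROSHA. Among 18 genes of actin turnover in lamellipodia, 2 rose and 1 fell, and the median was -0.01. LIMK1, the kinase that inactivates cofilin by phosphorylation, had 8.15 and 8.08 in the shDROSHA arrays, against 8.66 and 8.79 in the shNC arrays. The groups were well apart, and LIMK1 fell by 0.61 on the log2 scale (limma adjusted p = 0.00111). TWF1, a twinfilin that binds actin monomers and filament ends, rose by 0.28 (limma adjusted p = 0.00416). DSTN, the filament-severing relative of cofilin, rose by 0.22 (limma adjusted p = 0.0454). The DSTN call was lost without shDROSHA replicate 2 (0.16, adjusted p = 0.147), without shNC replicate 1 (0.14, adjusted p = 0.375) and with quantile normalization again (0.20, adjusted p = 0.0565).

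Of 13 proteins that oppose Rac, the complex or Arp2/3, 1 rose and 0 fell, with a median of -0.04. It was RACGAP1, which acts in cytokinesis, and it rose by 0.18 (limma adjusted p = 0.0279). Its call was lost without shDROSHA replicate 2 (adjusted p = 0.157), without shNC replicate 1 (0.17) and without shNC replicate 2 (0.0756). Of 15 other nucleation promoting factors and their partners, 1 rose and 0 fell, with a median of -0.07. WASHC4, a subunit of the endosomal WASH complex, rose by 0.46 (limma adjusted p = 0.0211), and lost its call without shNC replicate 1, where it was higher by 0.26 (adjusted p = 0.219). CYFIP proteins also bind the fragile X protein FMRP and the cap-binding translation factor EIF4E. Of the 4 genes of that list, 1 passed: EIF4E had 10.88 and 11.03 in the shDROSHA arrays, against 10.53 and 10.65 in the shNC arrays, and rose by 0.37 (limma adjusted p = 0.00283). FMR1 differed by -0.03 (95% interval -0.22 to 0.16).

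**Figure D5:**
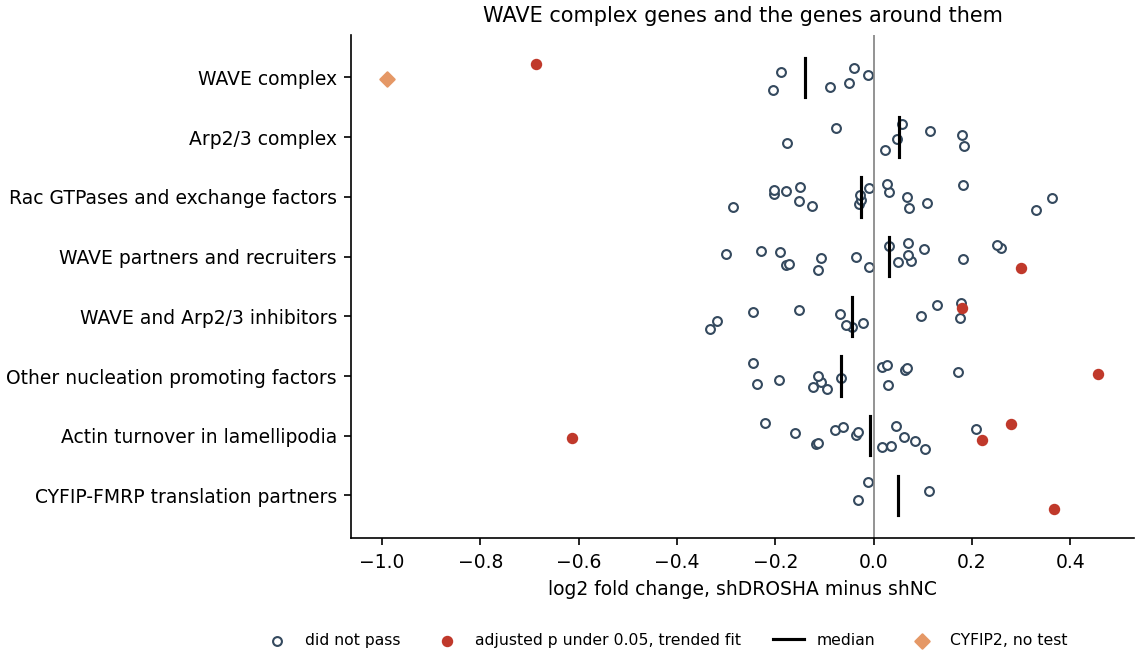
Log2 fold change, shDROSHA minus shNC (horizontal axis), of each measured gene of the WAVE complex and of the 7 lists around it; red points passed the trended fit, open points did not, the diamond is CYFIP2, which has no test here, and the black line is the median of all genes of a row. All WAVE complex genes lie below 0 in the values as deposited. The median of their row is -0.14 with CYFIP2, which led to the choice of the complex, and -0.09 without it. The other lists have medians between -0.07 and 0.05.

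The 5 named genes whose array values lay nearest to those of CYFIP2, each gene centred on its own mean over the 4 arrays, were B3GALT1, TC2N, E2F5, KIAA0040 and LDB2, at Euclidean distances of 0.079 to 0.158 log2 units. B3GALT1, a galactosyltransferase, had 5.18 and 5.07 in the shDROSHA arrays, against 6.14 and 6.15 in the shNC arrays. With 4 arrays such likeness mostly reflects a difference of similar size and sign, from -1.14 to -0.92 in these 5 genes. Among the members, WASF3 was nearest to CYFIP2, at 0.409, and the others lay between 0.793 and 0.993.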

How the data were processed

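RNA of 2 shDROSHA and 2 shNC samples was measured on 1 array each, and groups and replicate numbers come from the sample titles. The deposited values are log2 signals that the authors made with RMA, per the submitters' processing notes, which name no version or filter. RMA gives arrays nearly equal distributions, so a shift of most transcripts at once stays hidden. No detection calls were used, and the number of arrays limits the precision. P-values measure the spread between these samples only.

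All 15886 probe sets with 1 platform symbol were renamed through Entrez identifiers to RefSeq symbols of GRCh38.p14, and 2717 had none. The main test was limma 3.58.1 in R 4.3.3 (lmFit, eBayes with an intensity trend) with p-values adjusted over all probe sets by Benjamini-Hochberg. A run on simulated arrays checked the mean size of known changes. Its noise depended on signal alone, so it cannot decide between the priors. The trend was chosen because residual SD fell from 0.213 in the dimmest to 0.067 in the brightest of 5 bins of signal. Per gene the brightest probe set was used. The members and lists were chosen with earlier results of these data known. Named genes are all members, DROSHA, up to 3 called genes per list and direction with the smallest p, and the 5 genes nearest to CYFIP2, and the list extremes were added after their values were seen. Alternatives were a constant prior, robust priors, filters on dim probe sets, centring, repeated quantile normalization, a replicate block, a threshold of 0.1, averaged probe sets and leaving out each array.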

Additional observations from a re-analysis of the deposited data

How the results depend on the processing

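In the trended fit 1192 probe sets, 1 of the 7 members other than CYFIP2 and 7 genes of the lists around the complex were called. With a constant prior variance these counts were 1, 0 and 0 (2774, 1 and 8 at an unadjusted p under 0.05 in limma), and at an adjusted p of 0.1 they were 1824, 2 and 11. With the dimmer probe sets, those under the median, left out, 0 of the members were called, because WASF3 itself lay below that median and was not fitted. Without 1 array the counts ranged from 535 to 1949 probe sets, from 0 to 1 members and from 3 to 11 list genes. The lowest counts came without shNC replicate 1 (535 and 3) and, for the members, without shNC replicate 2, and the highest without shDROSHA replicate 1 (1949 and 11). With the replicate block they were 1391, 1 and 8. Deviations of arrays with the same number correlated at -0.022 over probe sets, so the numbers were not taken to pair the samples. Averaging probe sets changed no member, as each has 1 probe set. The constant prior had 3 prior degrees of freedom, against 11.9 in the trended fit, and the SE of WASF3 was 0.136 with it, against 0.146 with the trend. The causes of the changed counts were not tested, other than the looser threshold and the unfitted WASF3.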
